A study of Mus musculus with 12 samples.

Results

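Genes of intestinal stem cells and of Wnt signalling were followed across the colon of mice that lacked IL-10, STING, both or neither. The set names 10 genes: Lgr5, Ascl2, Axin2, Smoc2, Sox9, Ephb2, Prom1, Lrig1, Rnf43 and Znrf3. A gene was measured where the array's platform annotation gave a probe set exactly 1 gene symbol, and its brightest probe set by mean over the 12 arrays stood for it. By that rule 9 of the 10 were measured, of 22180 genes in all, and Ephb2 was not analysed here.

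RNA from whole colon was hybridised to Affymetrix whole-transcript arrays, 3 arrays for each of 4 genotypes. DKO colons were IL10-/- STING-/- and IL10KO colons were IL10-/- STING+/+. SKO colons were IL10+/+ STING-/- and WT colons were IL10+/+ STING+/+. DKO and IL10KO thus shared the loss of IL10, and DKO and SKO shared the loss of STING. The labels give no strain, age, colon segment or state of inflammation, and they do not say whether each array came from its own animal. The p-values therefore measure only the spread between these samples, which may be technical.

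IL-10 is a cytokine that restrains immune responses to gut bacteria, and mice without it are widely used as a model of colitis. STING is an adaptor protein that passes on the sensing of cytosolic DNA and of bacterial cyclic dinucleotides. The colon epithelium is renewed from stem cells at the base of the crypts. Wnt proteins from neighbouring cells bind Frizzled and Lrp receptors on these cells, beta-catenin then reaches the nucleus, and there it activates target genes together with TCF and LEF factors. R-spondins strengthen the signal through Lgr receptors by keeping the ligases Rnf43 and Znrf3 from removing Frizzled from the cell surface.

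Values are log2 signals per probe set as the authors deposited them, and differences are on the log2 scale, so that a difference of 1 is a doubling. A gene is called where limma's moderated test, fitted over all genes and all 12 arrays, gave a Benjamini-Hochberg adjusted p under 0.05. Levels are compared within a probe set and never between genes. The array medians lay between 4.80 and 5.02. The 8 epithelial markers averaged 10.27 to 10.59 in every array.

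Some libraries stood apart. The STING gene Sting1 read 4.23, 4.13 and 4.34 in DKO, 6.87, 8.09 and 7.33 in IL10KO, 4.40, 4.32 and 4.28 in SKO, and 7.51, 6.40 and 4.56 in WT. The last WT value lies close to the STING knockouts, so that array is called the library labelled WT replicate 3, and differences drawn from WT include it. Il10 read 4.33 to 4.60 in DKO, 4.59 to 5.47 in IL10KO, 3.65 to 3.82 in SKO and 3.59 to 3.80 in WT. No source used here says whether its probe set lies in the deleted part, so Il10 does not check the labels. Pancreatic acinar markers, 6 genes, averaged 9.22 and 11.89 in WT replicates 1 and 2, and 4.51 to 5.06 in the other 10 arrays. Of the 12 arrays, IL10KO replicate 1 had the lowest mean correlation with the others over all genes, at 0.968, and SKO replicate 2 had the lowest of its genotype, at 0.979.

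As a sequence beside the values, Axin2 serves here as the member most often used as a readout of Wnt signalling. Its 250 bases before the start of the gene, from RefSeq on GRCm38.p6 at chr11:108920099-108920348 on the plus strand, are shown in lower case.
Axin2: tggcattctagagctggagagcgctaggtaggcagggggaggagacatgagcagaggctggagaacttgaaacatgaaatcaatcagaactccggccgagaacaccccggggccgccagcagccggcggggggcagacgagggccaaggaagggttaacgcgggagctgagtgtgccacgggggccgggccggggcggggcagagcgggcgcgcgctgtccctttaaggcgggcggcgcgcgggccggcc
The words searched for on both strands, spellings of the TCF and LEF motif, were CTTTGAA and, with other last letters, the word CTTTGAT, the word CTTTGTA and the word CTTTGTT, in windows of 300 bases from 250 before to 50 after a gene's start. The 4 words share their first 5 letters, so no base starts more than 1 of them on a strand. Of 32851 such windows, 5544 (16.9%) held at least 1 of the 4 words. Among the 10 genes, 6 had an entry, with 8 windows for Ascl2, Axin2, Ephb2, Lrig1, Prom1 and Rnf43, and 0 of the 8 held one. This says only that these letters are not in these windows.

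None of the 4 stem cell markers below was called in any comparison of genotypes. Lgr5, the R-spondin receptor that marks the columnar stem cells of the crypt base, read 5.88, 5.40 and 5.55 in DKO, 4.71, 5.61 and 5.20 in IL10KO, 5.69, 5.07 and 5.44 in SKO, and 5.92, 5.79 and 5.42 in WT. IL10KO replicates 1 and 3 held low values and IL10KO replicate 2 lay among the WT arrays, so these genotypes overlapped. The difference IL10KO minus WT was -0.54 ± 0.23 (SE; 95% confidence interval -1.03 to -0.04), with a limma adjusted p of 0.158. It rested on single libraries: the difference was -0.31 (limma adjusted p = 0.473) without IL10KO replicate 1, and without IL10KO replicate 2 it was -0.75 and passed the test (limma adjusted p = 0.0468). Without WT replicates 1 and 2, which leaves only the library labelled WT replicate 3 in WT, the Lgr5 difference was -0.25. DKO minus IL10KO was 0.44 ± 0.23 for Lgr5 (95% confidence interval -0.05 to 0.94; limma adjusted p = 0.255), and it was 0.21 when IL10KO replicate 1 was left out and 0.66 when IL10KO replicate 2 was. A second, dimmer Lgr5 probe set read 3.46 to 4.07 over all arrays and differed by 0.02 between IL10KO and WT.

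Smoc2, a secreted matrix protein enriched in Lgr5-positive stem cells, read 7.0, 6.88 and 6.94 in DKO, 6.96, 6.83 and 7.14 in IL10KO, 6.67, 6.17 and 6.77 in SKO, and 6.76, 7.02 and 6.72 in WT. All 3 DKO arrays lay above all 3 SKO arrays, and SKO replicate 2 was the lowest of the 12. DKO minus SKO was 0.40 ± 0.16 (95% confidence interval 0.05 to 0.76), with an unadjusted p of 0.0276 and a limma adjusted p of 0.998, and it was 0.22 without SKO replicate 2. Prom1, the membrane glycoprotein CD133 of stem and progenitor cells, read 8.77, 8.97 and 8.83 in DKO, 9.36, 8.80 and 8.63 in IL10KO, 8.91, 8.28 and 8.57 in SKO, and 7.94, 8.44 and 8.92 in WT. Its WT arrays spread over most of the range of Prom1, with WT replicate 1 the lowest of all 12, and every pair of genotypes that was compared overlapped. IL10KO minus WT for Prom1 was 0.50 ± 0.24 (95% confidence interval -0.03 to 1.02; limma adjusted p = 0.217), and it was 0.01 without WT replicates 1 and 2. It was also 0.28 without IL10KO replicate 1 and 0.25 without WT replicate 1.

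Lrig1, a membrane protein that damps ErbB receptor signalling and marks cells of the crypt base, read 8.23, 8.31 and 8.27 in DKO, 8.07, 8.19 and 8.28 in IL10KO, 8.31, 8.32 and 8.38 in SKO, and 8.25, 8.40 and 8.20 in WT. It varied least of the 9, with a root mean square deviation from its own mean of 0.09 over the 12 arrays. IL10KO minus WT for Lrig1 was -0.10 ± 0.12 (95% confidence interval -0.36 to 0.15; limma adjusted p = 0.601).

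Of the transcription factors, Sox9 fell in IL10KO colons. Sox9, an HMG-box factor of crypt base stem and progenitor cells and itself a Wnt target, read 9.31, 9.31 and 9.02 in DKO, 8.86, 9.20 and 8.45 in IL10KO, 9.64, 9.65 and 9.62 in SKO, and 9.68, 9.58 and 9.71 in WT. Every array with IL10-/- lay below every array with IL10+/+, and IL10KO reached lower than DKO with 1 overlapping array. The share of all genes separated in this way by IL10 genotype was not counted, so how unusual the separation is was not tested. For IL10KO and WT alone, the IL10KO arrays lay below all WT arrays for 16% of all genes. IL10KO averaged 8.84 ± 0.37 and WT 9.65 ± 0.07 (SD, n = 3 each), a difference of -0.82 ± 0.17 (95% confidence interval -1.18 to -0.46), which is 43.2% lower on the linear scale (limma adjusted p = 0.0111). In bulk colon, fewer cells of a type and less RNA per cell cannot be told apart. Sox9 passed the test in 12 of 12 fits that left out 1 array each, with a limma adjusted p of at most 0.0429. The difference was -0.80 (limma adjusted p = 0.0717) without IL10KO replicate 1, SKO replicate 2 and the library labelled WT replicate 3. Without WT replicates 1 and 2 the Sox9 difference stood at -0.87 (limma adjusted p = 0.167), in a fit whose WT is only the library labelled WT replicate 3, assumed to vary like the other groups.

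In DKO colons Sox9 lay between the levels of IL10KO and of the genotypes with IL10. DKO averaged 9.21 ± 0.17 (SD, n = 3) against 8.84 ± 0.37 in IL10KO, a difference of 0.38 ± 0.17 (95% confidence interval 0.01 to 0.74), which did not pass the test (limma adjusted p = 0.189). Without IL10KO replicate 2, whose value of 9.20 lay among the DKO arrays, it was 0.56 and passed (limma adjusted p = 0.0389). Without IL10KO replicate 3, the lowest array of Sox9, it was 0.18 (limma adjusted p = 0.476), and with each array centred on its epithelial markers it was also 0.18 (limma adjusted p = 0.504). That centring moved the median of all genes in DKO minus IL10KO from -0.04 to -0.23. DKO minus SKO was -0.43 ± 0.17 for Sox9, with DKO below SKO in all arrays, an unadjusted p of 0.0243 and a limma adjusted p of 0.998. DKO minus WT was -0.44 ± 0.17, likewise without overlap (unadjusted p = 0.0203; limma adjusted p = 1). SKO minus WT was -0.02 for Sox9 (95% confidence interval -0.38 to 0.35).

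Ascl2, a basic helix-loop-helix factor that maintains stem cell identity, read 6.67, 6.32 and 6.45 in DKO, 5.93, 6.58 and 6.20 in IL10KO, 6.50, 6.49 and 6.68 in SKO, and 6.53, 6.40 and 6.72 in WT. IL10KO replicates 1 and 3 held its lowest values, and IL10KO replicate 2 lay among the other genotypes. IL10KO minus WT for Ascl2 was -0.31 ± 0.17 (95% confidence interval -0.68 to 0.05; limma adjusted p = 0.263). It was -0.16 when IL10KO replicate 1 was left out, -0.48 when IL10KO replicate 2 was, and -0.07 without IL10KO replicate 1, SKO replicate 2 and the library labelled WT replicate 3.

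**Figure D1:**
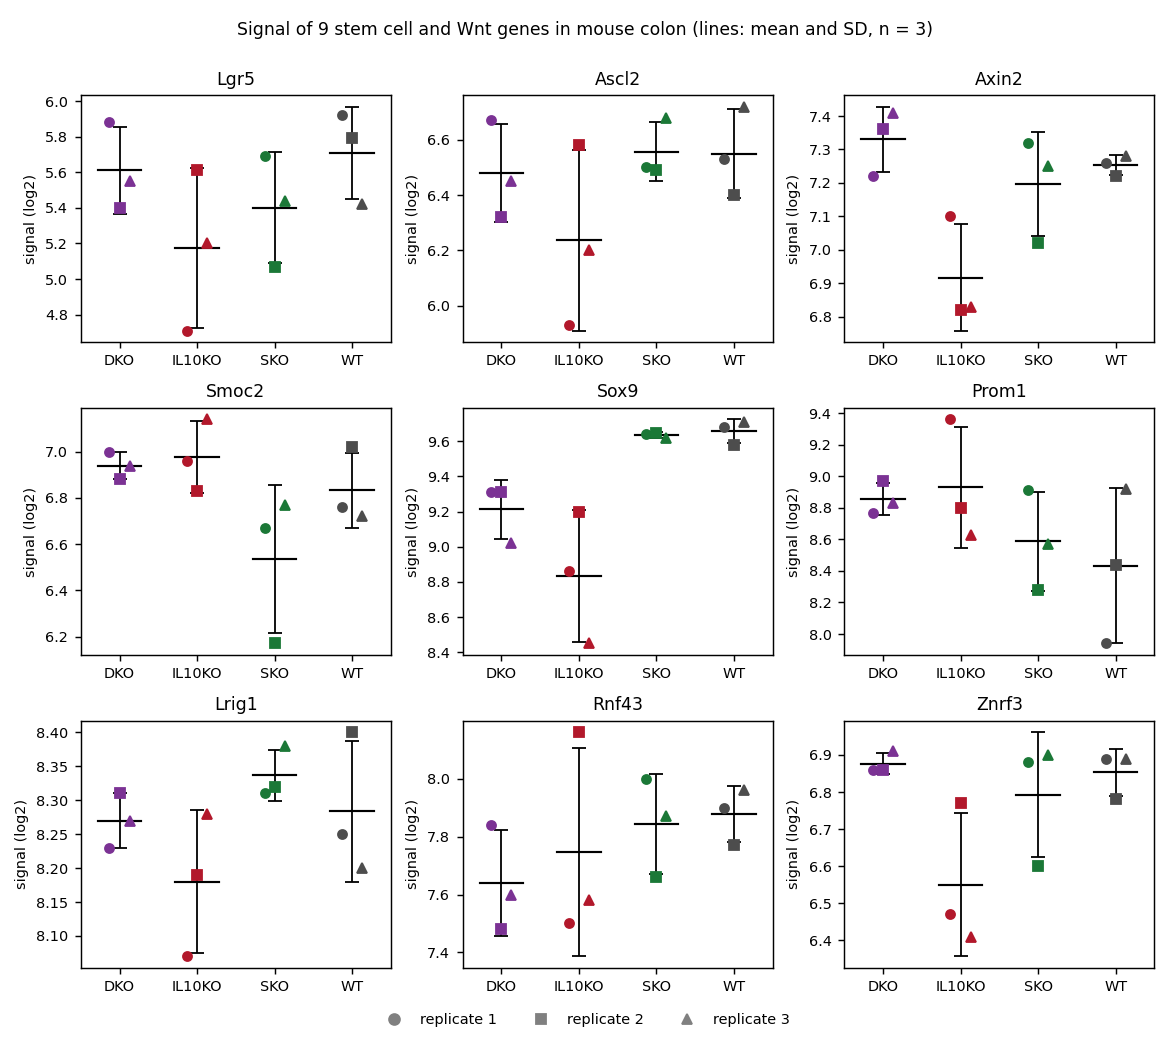
Signal of 9 stem cell and Wnt genes (log2, vertical axes, each with its own range) in DKO, IL10KO, SKO and WT colons; points are arrays, with symbols for replicates 1 to 3, and lines are the mean and SD (n = 3). Sox9 averages 9.21 in DKO and 8.84 in IL10KO, against 9.64 in SKO and 9.65 in WT, while IL10KO replicate 2 lies above both other IL10KO arrays for Lgr5, Ascl2, Rnf43, Sox9 and Znrf3.

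Of the 3 feedback inhibitors of Wnt signalling, Axin2, Znrf3 and Rnf43, none passed the test in IL10KO against WT. Axin2, a scaffold of the complex that destroys beta-catenin and a direct Wnt target, read 7.22, 7.36 and 7.41 in DKO, 7.10, 6.82 and 6.83 in IL10KO, 7.32, 7.02 and 7.25 in SKO, and 7.26, 7.22 and 7.28 in WT. All 3 IL10KO arrays lay below all 3 of DKO and all 3 of WT, and SKO replicate 2 was the only array of another genotype within the IL10KO range. IL10KO minus WT for Axin2 was -0.34 ± 0.13 (95% confidence interval -0.62 to -0.06; unadjusted p = 0.0219; limma adjusted p = 0.122). DKO minus IL10KO was 0.42 ± 0.13 (95% confidence interval 0.13 to 0.70), with an unadjusted p of 0.00694 and a limma adjusted p of 0.0767. It passed with array weights (0.47, limma adjusted p = 0.0459) and without IL10KO replicate 1, SKO replicate 2 and the library labelled WT replicate 3 (0.51, limma adjusted p = 0.0418). It was smaller, at 0.21 (limma adjusted p = 0.385), with the mean of both Axin2 probe sets. With each array centred on its epithelial markers, which moved the median of all genes in DKO minus IL10KO to -0.23, it was 0.22 (limma adjusted p = 0.246). A second Axin2 probe set did not follow this pattern: it read 4.74 to 5.62 over all arrays, and its IL10KO minus WT difference was 0.17. With the mean of both Axin2 probe sets, IL10KO minus WT was -0.08 (limma adjusted p = 0.753).

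Znrf3, a ligase that takes Frizzled receptors off the cell surface, read 6.86, 6.86 and 6.91 in DKO, 6.47, 6.77 and 6.41 in IL10KO, 6.88, 6.60 and 6.90 in SKO, and 6.89, 6.78 and 6.89 in WT. IL10KO lay below DKO and below WT in all arrays, but IL10KO replicate 2 missed the lowest WT array by only 0.01. IL10KO minus WT for Znrf3 was -0.30 ± 0.13 (95% confidence interval -0.59 to -0.01; limma adjusted p = 0.173), and DKO minus IL10KO was 0.32 ± 0.13 (95% confidence interval 0.03 to 0.61; limma adjusted p = 0.16). Rnf43, the paralogous ligase with the same substrate, read 7.84, 7.48 and 7.60 in DKO, 7.50, 8.16 and 7.58 in IL10KO, 8.0, 7.66 and 7.87 in SKO, and 7.90, 7.77 and 7.96 in WT. Its highest value of the 12 stood in IL10KO replicate 2, and the genotypes overlapped. IL10KO minus WT for Rnf43 was -0.13 ± 0.18 (95% confidence interval -0.51 to 0.25; limma adjusted p = 0.666), and it was -0.34 when IL10KO replicate 2 was left out and within 0.01 of 0 when IL10KO replicate 1 was.

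Counted together, 1 of 9 genes was called in IL10KO against WT, in the lower direction, where 5.01% of all genes were called lower and 8.14% either way. At an unadjusted p under 0.05 there were 4 of 9, Lgr5, Axin2, Sox9 and Znrf3, all with lower values in IL10KO, where 26.2% of all genes passed and 14.6% did so as lower. The IL10KO arrays lay below all WT arrays for 3 of 9, Axin2, Sox9 and Znrf3, against 16% of all genes. The median difference of the 9 genes was -0.30 and that of all genes 0.03. The shares of the 9 rest on few genes, and most of the 9 lay on the side of lower values, 7 of 9, against 46.4% of all genes.

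In DKO against IL10KO, limma called 0 of 9 genes, where 5.79% of all genes were called. At an unadjusted p under 0.05 there were 3 of 9, Axin2, Sox9 and Znrf3, all with higher values in DKO, where 24.4% of all genes passed and 12.6% did so as higher. The DKO arrays lay above all IL10KO arrays for Axin2 and Znrf3, 2 of 9, against 13.4% of all genes. The median difference was 0.24 for the 9 genes and -0.04 for all genes. This comparison shares the IL10KO arrays with IL10KO against WT, so values low in IL10KO enter both.

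The comparisons that do not involve IL10KO gave no call among the 9. In DKO against WT, limma called 0 of 9 (0.0451% of all genes), and 1 of 9, Sox9, had an unadjusted p under 0.05 (2.92% of all genes). Sox9 was also the 1 of 9 whose DKO and WT arrays did not overlap, against 9.4% of all genes. The differences ran from -0.44 to 0.42 with a median of -0.01. In SKO against WT, limma called 0 of 9 (0% of all genes), and 0 of 9 had an unadjusted p under 0.05 (2.05% of all genes). Arrays of SKO and WT overlapped for all 9, where 6.21% of all genes did not. The largest SKO minus WT differences were those of Lgr5, at -0.31 ± 0.23 (95% confidence interval -0.80 to 0.19), and of Smoc2, at -0.30 ± 0.16 (95% confidence interval -0.65 to 0.06). Without SKO replicate 2 they were -0.14 for Lgr5 and -0.11 for Smoc2, and Prom1 differed by 0.30. Without the library labelled WT replicate 3, whose Sting1 value lies close to the STING knockouts, they were larger. Lgr5 then differed by -0.45, Smoc2 by -0.35 and Prom1 by 0.39. In DKO against SKO, limma called 0 of 9 (0.0451% of all genes), and Smoc2 and Sox9 had an unadjusted p under 0.05 (4.77% of all genes). Arrays of DKO and SKO did not overlap for Smoc2, Sox9 and Lrig1, against 11.1% of all genes, though the nearest Lrig1 arrays both round to 8.31. Only with array weights did Sox9 (-0.42, limma adjusted p = 0.0237) and Rnf43 (-0.41, limma adjusted p = 0.0255) pass in DKO against SKO, and that setting called 1940 genes in place of 10. In the comparisons of genotypes, 95% confidence intervals reached 0.25 to 0.53 to either side of the difference, with a median of 0.36, so a missed call does not show that levels were alike.

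**Figure D2:**
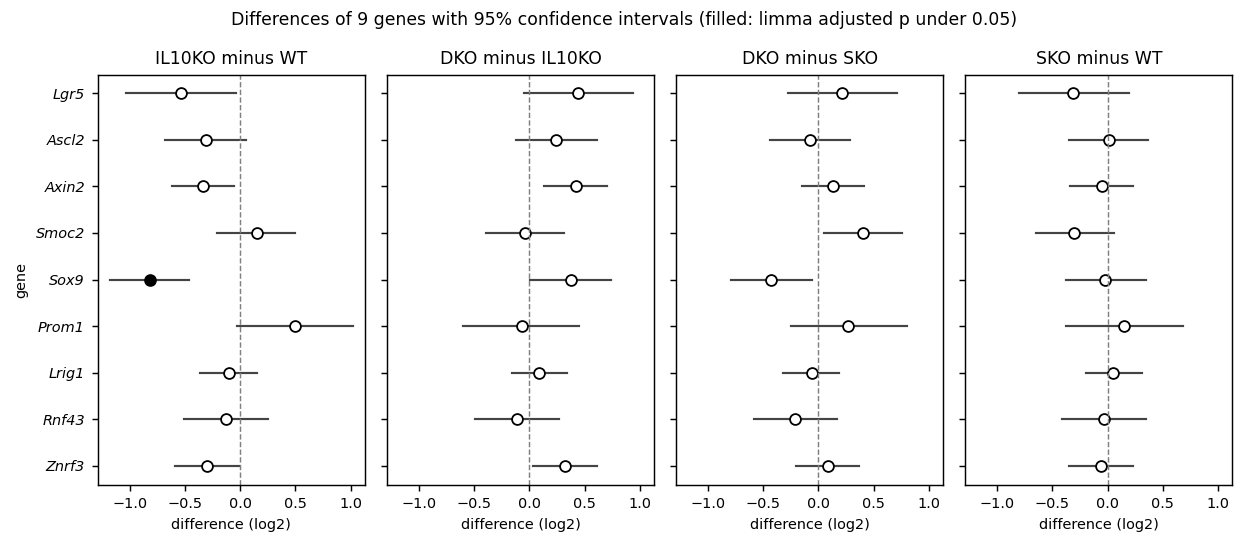
Differences of the 9 genes (log2, horizontal axes; genes down the page) in IL10KO minus WT, DKO minus IL10KO, DKO minus SKO and SKO minus WT, as points with 95% confidence intervals; filled points passed the limma test. Sox9 at -0.82 in IL10KO minus WT is the only filled point, and the intervals of Lgr5, Axin2 and Znrf3 in that panel end just below 0.

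Whether the effect of losing IL-10 differed with STING was tested as (DKO minus SKO) minus (IL10KO minus WT). For the 9 genes limma called 0, where 0.645% of all genes were called, and 2 had an unadjusted p under 0.05, against 15.7% of all genes. These were Lgr5, at 0.75 ± 0.33 (95% confidence interval 0.05 to 1.45; limma adjusted p = 0.294), and Axin2, at 0.47 ± 0.19 (95% confidence interval 0.07 to 0.87; limma adjusted p = 0.257). For Sox9 the difference of effects was 0.39 ± 0.24 (95% confidence interval -0.12 to 0.90; limma adjusted p = 0.427). A call of Sox9 in IL10KO against WT and none in DKO against SKO is thus not shown to be a difference between them.

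The arrays did not contribute evenly. IL10KO replicate 1 was the lowest of 12 for 3 of the 9 genes and among the lowest 3 for 6, and IL10KO replicate 3 was the lowest for 2 and among the lowest 3 for 6. IL10KO replicate 2 was the lowest for 1 and among the lowest 3 for 2. Outside IL10KO, SKO replicate 2 was among the lowest 3 for 5 of the 9. In their profiles over the 12 arrays, each centred on its own mean, Axin2 and Znrf3 were the nearest pair, with a root mean square distance of 0.13. Prom1 was the farthest from 7 of the other 8, up to 0.61 from Sox9. Such distances describe 12 shared arrays and are not tests.

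By the same distance, the 5 genes nearest Sox9 were Mrtfb (0.127), Ldlrad3 (0.134), Cracd (0.135), Zhx2 (0.138) and Srgap3 (0.141), where the median gene lay at 0.42. The 5 nearest Lgr5 were Ints2 (0.106), Osbpl8 (0.116), Wdr76 (0.119), B3galnt2 (0.122) and Cflar (0.123), where the median gene lay at 0.38. All 10 had lower means in IL10KO than in WT, by differences of -0.86 to -0.57 for those near Sox9 and of -0.63 to -0.40 for those near Lgr5. They were chosen for likeness to Sox9 or Lgr5 over the same arrays, so this shared direction follows from the choice.

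The wider Wnt pathway was read from 6 lists with 85 genes, of which 82 were measured. In IL10KO against WT, 2 were called higher, 5 were called lower and 75 were not called, which is 8.54% called against 8.14% of all genes. The 24 with an unadjusted p under 0.05 stand against 26.2% of all genes. Of the 19 Wnt ligands limma called 0, with 3 at an unadjusted p under 0.05, and their median difference was 0.19. At that level stood 9 of 15 receptors and co-receptors, with a median of -0.24, and 6 of 11 nuclear components, with -0.40. There were 2 of 15 extracellular inhibitors (median 0.21), 1 of 6 R-spondins and their other receptors (0.24) and 3 of 16 secretion and cytoplasmic components (-0.21). The ligand list averaged 5.15 in IL10KO replicate 1 and 5.09 in SKO replicate 2, against 4.65 to 4.89 elsewhere. These arrays also had the highest medians over all probe sets, 5.02 and 4.96. The part of such array differences in the list medians was not tested. Over the 82, the calls changed with the arrays and the centring used. Without IL10KO replicate 1, SKO replicate 2 and the library labelled WT replicate 3, limma called 1 higher and 0 lower, and without WT replicates 1 and 2 limma called 0, with 11 at an unadjusted p under 0.05. With each array centred on its epithelial markers, 2 were called higher and 1 lower.

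Among 15 Wnt receptors and co-receptors, Lrp6 and Ror1 were called lower and the dim Fzd10 higher in IL10KO. Lrp6, the co-receptor of Frizzled in the beta-catenin branch, read 9.22, 9.49 and 9.33 in IL10KO and 9.81, 10.08 and 9.87 in WT, without overlap. The difference was -0.58 ± 0.13 (limma adjusted p = 0.0169), and the call ended without IL10KO replicate 1 or WT replicate 2 (limma adjusted p up to 0.082). The Lrp6 call also ended with the mean of its probe sets and with each array centred on its epithelial markers. Ror1, a receptor tyrosine kinase that binds Wnt5a, differed by -1.14 ± 0.24 (limma adjusted p = 0.0124). Fzd10, a Frizzled receptor, read 2.78 to 3.48, below the lower quartile of its array in 12 of 12 arrays, and differed by 0.50 ± 0.13 (limma adjusted p = 0.0315). Its call ended with quantile normalization (0.39, limma adjusted p = 0.0538) and with arrays centred on their medians (0.44, limma adjusted p = 0.0595). It also ended without IL10KO replicate 1, IL10KO replicate 3, WT replicate 1 or the library labelled WT replicate 3 (limma adjusted p up to 0.133).

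Of 6 R-spondins and their other receptors, 1 was called. Lgr4, the R-spondin receptor expressed more widely than Lgr5, read 9.48, 9.70 and 9.13 in IL10KO and 10.22, 10.08 and 9.98 in WT, without overlap. The difference was -0.66 ± 0.16 (limma adjusted p = 0.0228), and the call ended without IL10KO replicate 3, WT replicate 1 or WT replicate 2 (limma adjusted p up to 0.0847). Rspo3, an R-spondin of the stroma, read 6.21, 7.20 and 6.84 in IL10KO and 6.35, 6.23 and 6.16 in WT, a difference of 0.50 ± 0.24 that did not pass (limma adjusted p = 0.203).

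Single genes of the remaining pathway lists were called. Sfrp2, a secreted protein that binds Wnts, was the 1 called of 15 extracellular inhibitors, at 0.82 ± 0.20 (limma adjusted p = 0.0267), and it lost the call without IL10KO replicate 1, IL10KO replicate 3, WT replicate 1 or WT replicate 2 (up to 0.105). Dvl3, a Dishevelled protein that relays the signal from Frizzled, was the 1 called of 16 secretion and cytoplasmic components, at -0.53 ± 0.15 (limma adjusted p = 0.047). Tcf7l2, the main TCF factor of the gut epithelium, was the 1 called of 11 nuclear components, at -0.73 ± 0.20 (limma adjusted p = 0.0443). Both lie just under the threshold: Dvl3 kept its call in 3 of 12 fits that left out 1 array each, those without IL10KO replicate 2, DKO replicate 1 or SKO replicate 2, and Tcf7l2 in 4, those 3 and the fit without DKO replicate 3 (limma adjusted p up to 0.144 and 0.141).

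In DKO against IL10KO, 1 of the 82 was called higher, 1 lower and 80 not, which is 2.44% against 5.79% of all genes. These were Lrp6, at 0.52 ± 0.13 (limma adjusted p = 0.0316), and Fzd10, at -0.54 (limma adjusted p = 0.028). Lrp6 read 9.89, 9.96 and 9.76 in DKO, above its 3 IL10KO arrays, and Fzd10 read 2.84, 2.98 and 2.91, below them. The Lrp6 call ended without IL10KO replicate 1, IL10KO replicate 3, DKO replicate 1, DKO replicate 2 or SKO replicate 1 (limma adjusted p up to 0.128). It also ended with the mean of its probe sets, with quantile normalization and with each array centred on its epithelial markers. With that centring the median of all genes in DKO minus IL10KO was -0.23. The Fzd10 call ended without IL10KO replicate 1, IL10KO replicate 3 or any 1 DKO array (limma adjusted p up to 0.11). Further, limma called 0 of the 82 in DKO against SKO, with 4 at an unadjusted p under 0.05. It also called 0 in DKO against WT, with 3 at that level, and 0 in SKO against WT, with 2.

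Besides Axin2 and Sox9, 9 other Wnt target genes were measured, and 1 was called. Mmp7, the matrix protease matrilysin that is a Wnt target in intestinal tumours and is also made by inflamed epithelium, read 4.71, 4.75 and 5.09 in DKO, 8.51, 8.03 and 8.44 in IL10KO, 5.26, 4.96 and 5.27 in SKO, and 5.36, 5.23 and 5.32 in WT. It was high in all 3 IL10KO arrays and in no other. IL10KO minus WT was 3.02 ± 0.16 (limma adjusted p = 1.99e-07), and DKO minus IL10KO was -3.48 ± 0.16 (limma adjusted p = 4.21e-08). With the mean of its probe sets Mmp7 differed by 1.5 and -1.77 in these comparisons and was called in both (limma adjusted p = 3.7e-05 and 1.05e-05). Nkd1, an inhibitor of Dishevelled, differed by -0.70 ± 0.21 in IL10KO minus WT and missed the threshold (limma adjusted p = 0.0557), and Myc differed by -0.40 (limma adjusted p = 0.112). The median over the 9 was -0.12.

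Of 12 other stem and progenitor markers, Rgmb, a co-receptor for BMPs enriched in Lgr5-positive cells, was the 1 called. Rgmb read 9.16, 8.83 and 8.83 in DKO, 7.95, 8.18 and 8.31 in IL10KO, 9.08, 8.68 and 9.06 in SKO, and 8.96, 8.86 and 9.03 in WT. It fell in IL10KO by 0.81 ± 0.15 against WT (limma adjusted p = 0.00788) and was higher in DKO than in IL10KO by 0.79 (limma adjusted p = 0.0106), a call that ended without DKO replicate 1 (limma adjusted p = 0.0586). Olfm4, Bmi1, Hopx and Msi1 differed by 0.03, 0.07, 0.14 and 0.29 in IL10KO minus WT and were not called. Olfm4 was dim, at 3.08 to 3.66 over all arrays. Others of the list were lower in IL10KO and not called either. Cd24a averaged 10.19 in IL10KO and 10.69 in WT and Kcnq1 7.63 and 8.12, both without overlap, and Alcam averaged 7.90 and 8.32. At an unadjusted p under 0.05 there were 4 of the 12, where 26.2% of all genes passed. The median over the 12 was -0.03.

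Among 8 genes of regenerating epithelium, Anxa1, a lipid-binding protein raised in repairing crypts, was called in IL10KO against WT, at 1.10 ± 0.16 (limma adjusted p = 0.00187). Anxa1 averaged 10.08 ± 0.12 in DKO and 10.91 ± 0.31 in IL10KO (SD, n = 3 each), without overlap. DKO minus IL10KO was -0.83 for Anxa1 (limma adjusted p = 0.0115), and this call ended without DKO replicate 2 (limma adjusted p = 0.0526). Ereg, the growth factor epiregulin, was also lower in DKO than in IL10KO, at -1.40 ± 0.36 (limma adjusted p = 0.0361), and the call ended without any 1 DKO array (limma adjusted p up to 0.12). Ereg read 7.64, 9.30 and 7.81 in IL10KO, 7.25, 6.76 and 6.55 in DKO and 7.34 to 7.78 in WT, so IL10KO replicate 2 stood apart. Over the alternatives this Ereg difference ran from -1.70 to -0.78. Clu, a marker of revival stem cells in the mouse, differed by -0.75 ± 0.39 in IL10KO minus WT and was not called (limma adjusted p = 0.24).

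BMP signals restrain stem cell renewal above the crypt base. Of 12 BMP pathway genes, Grem1 rose and Bmp2 and Chrdl1 fell in IL10KO against WT. Grem1, a secreted BMP antagonist of the crypt base stroma, read 9.11, 9.04 and 9.14 in DKO, 9.73, 10.32 and 9.87 in IL10KO, 9.14, 9.22 and 9.12 in SKO, and 9.07, 9.0 and 9.16 in WT. All 3 IL10KO arrays lay above the 9 others, and Grem1 differed by 0.90 ± 0.15 in IL10KO minus WT (limma adjusted p = 0.00324) and by -0.87 ± 0.15 in DKO minus IL10KO (limma adjusted p = 0.00445).

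Bmp2, a BMP ligand of the upper crypt, read 8.80, 9.01 and 8.87 in DKO, 7.80, 7.98 and 7.85 in IL10KO, 8.61, 8.46 and 8.88 in SKO, and 8.78, 8.55 and 8.55 in WT. All 3 IL10KO arrays lay below the 9 others. Bmp2 differed by -0.75 ± 0.14 in IL10KO minus WT (limma adjusted p = 0.0061) and by 1.02 ± 0.14 in DKO minus IL10KO (limma adjusted p = 0.00123). Chrdl1, another BMP antagonist, differed by -0.82 in IL10KO minus WT (limma adjusted p = 0.0341) and by 0.79 in DKO minus IL10KO (limma adjusted p = 0.0472). It kept the call in 7 and in 3 of 12 fits that left out 1 array each. The first call ended without IL10KO replicate 1 or 3 or any 1 WT array (limma adjusted p up to 0.116), and the second stayed only without IL10KO replicate 2, SKO replicate 2 or SKO replicate 3 (up to 0.192).

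Of 7 Notch pathway genes, Atoh1, the factor that sets secretory fate, fell in IL10KO by 0.62 ± 0.16 against WT (limma adjusted p = 0.0294) and was higher in DKO than in IL10KO by 0.75 ± 0.16 (limma adjusted p = 0.0149). The first call of Atoh1 ended without IL10KO replicate 1, IL10KO replicate 3, WT replicate 2 or the library labelled WT replicate 3 (up to 0.124), and the second without IL10KO replicate 3, DKO replicate 1 or DKO replicate 2 (up to 0.0747). Both ended with only the genotypes compared in the fit. The first also ended with quantile normalization, with all probe sets tested and with each array centred on its epithelial markers. These lists were chosen with earlier results of these data known, and the counts describe them only.

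**Figure D3:**
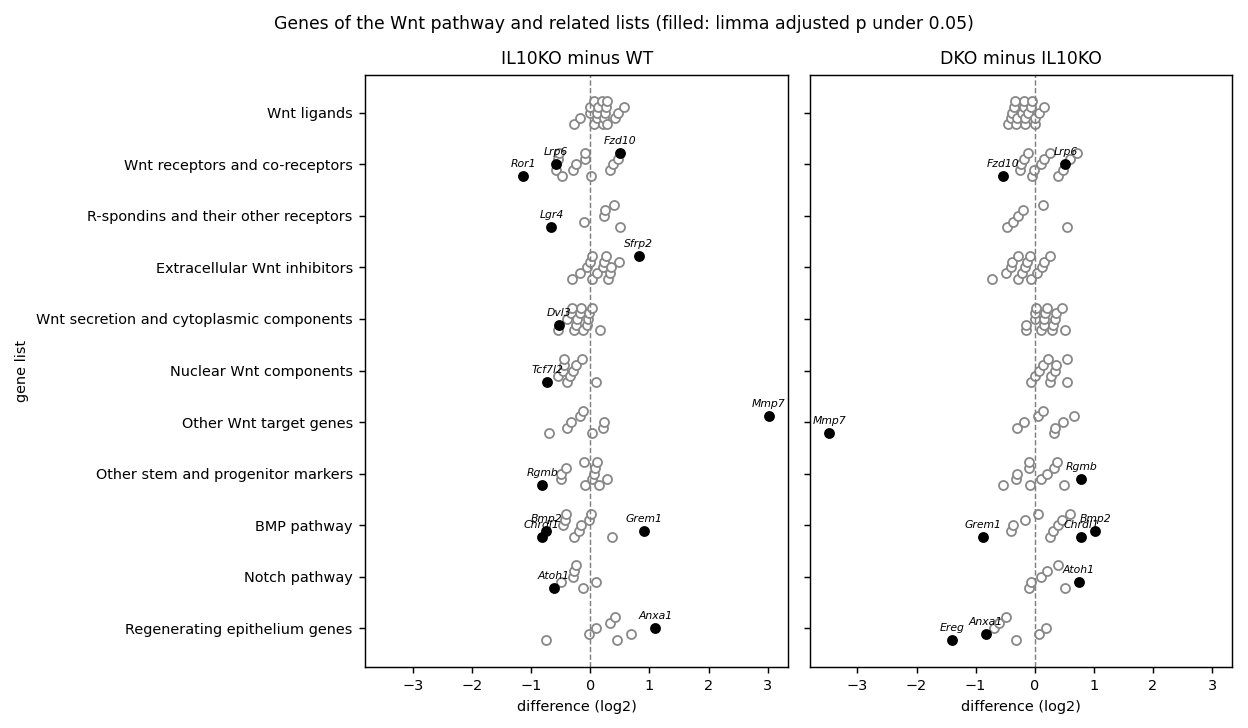
Differences (log2, horizontal axes) of every measured gene in 11 lists of the Wnt pathway and related pathways (down the page) for IL10KO minus WT and DKO minus IL10KO; filled, named points passed the limma test. Most points are open and lie around 0, and Mmp7 at 3.02 and -3.48 stands farthest out.

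Markers of other cell types moved in the same comparison as Sox9. Of 7 colonocyte markers, Car1, Aqp8, Slc20a1 and Slc26a3 were called lower in IL10KO than in WT, and the list averaged 10.22 to 10.50 in IL10KO arrays and 11.02 to 11.28 in WT arrays. Of 6 genes listed as markers of deep crypt secretory cells, which share the crypt base with stem cells, Ang4, Mptx1, Reg4 and Kit were called lower and Lyz1 higher. Which cells of the whole colon gave these signals was not tested. Ang4 differed by -4.82 ± 0.57 (limma adjusted p = 0.000332), Kit by -0.89 ± 0.15 (limma adjusted p = 0.00373) and Lyz1 by 2.30 ± 0.22 (limma adjusted p = 6.21e-05).

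Of 7 goblet cell markers, Clca1 and Fcgbp were called lower, and of 8 epithelial markers limma called 0, with 2 at an unadjusted p under 0.05. The epithelial list averaged 10.27 to 10.45 in IL10KO arrays and 10.38 to 10.50 in WT arrays, and the 9 proliferation markers 7.53 to 7.75 and 7.48 to 7.73, with 0 called by limma and 0 at an unadjusted p under 0.05. With each array centred on its epithelial markers, the median of all genes in IL10KO minus WT moved to 0.14, and Sox9 differed by -0.71 and passed (limma adjusted p = 0.0342).

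Outside the epithelium, Des, Actg2, Myh11 and Cnn1 of 6 smooth muscle markers were called lower in IL10KO, with list means of 10.65 to 10.81 in IL10KO arrays and 11.31 to 11.56 in WT arrays. S100a8, S100a9 and Csf3r of 7 leukocyte markers were called higher, with list means of 6.48 to 7.46 in IL10KO arrays and 5.32 to 6.13 in WT arrays. Of 9 markers of stratified squamous epithelium and hair follicle, 8 were called higher, and their mean was 5.01, 7.19 and 7.23 in IL10KO replicates 1 to 3 and 3.90 to 3.93 in WT arrays. Col1a1 of 7 fibroblast markers was called higher (list means 8.94 to 9.22 in IL10KO arrays and 8.84 to 8.91 in WT arrays), and limma called 0 of 3 enteric glia markers, with 0 at an unadjusted p under 0.05. In the fits that left out 1 array each, Slc26a3 lost its call without WT replicate 1 (limma adjusted p = 0.0502), Slc20a1, Reg4 and Actg2 kept theirs in 8 of 12, and Col1a1 in 2 of 12. Without WT replicates 1 and 2 the calls of Rgmb, Anxa1, Bmp2, Grem1, Chrdl1, Atoh1 and Kit in IL10KO against WT ended too. So did those of all 8 squamous markers and of Myh11, Cnn1, Actg2, Csf3r, Slc26a3, Slc20a1, Reg4 and Col1a1. The calls of Mmp7, Car1, Aqp8, Clca1, Fcgbp, Ang4, Lyz1, Mptx1, Des, S100a8 and S100a9 held in that fit. The part of these changes in the Sox9 difference was not tested.

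In DKO arrays the means of the following 4 lists overlapped those of WT. Colonocyte markers averaged 10.97 to 11.28, smooth muscle markers 11.35 to 11.51, leukocyte markers 5.54 to 5.81 and squamous markers 3.87, 3.87 and 4.71. Proliferation markers averaged 7.76 to 7.85 in DKO arrays and 7.48 to 7.73 in WT arrays, without overlap. Against SKO, where they averaged 7.14 to 7.56, limma called 0 of the 9 proliferation markers in DKO, 5 had an unadjusted p under 0.05, and the median difference was 0.48. DKO against IL10KO called 3 colonocyte, 2 goblet cell and 4 smooth muscle markers higher, 3 leukocyte and 6 squamous markers lower, and Ang4, Mptx1 and Kit higher with Lyz1 lower. Sox9, which was not called in this comparison, differed by 0.38.

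**Figure D4:**
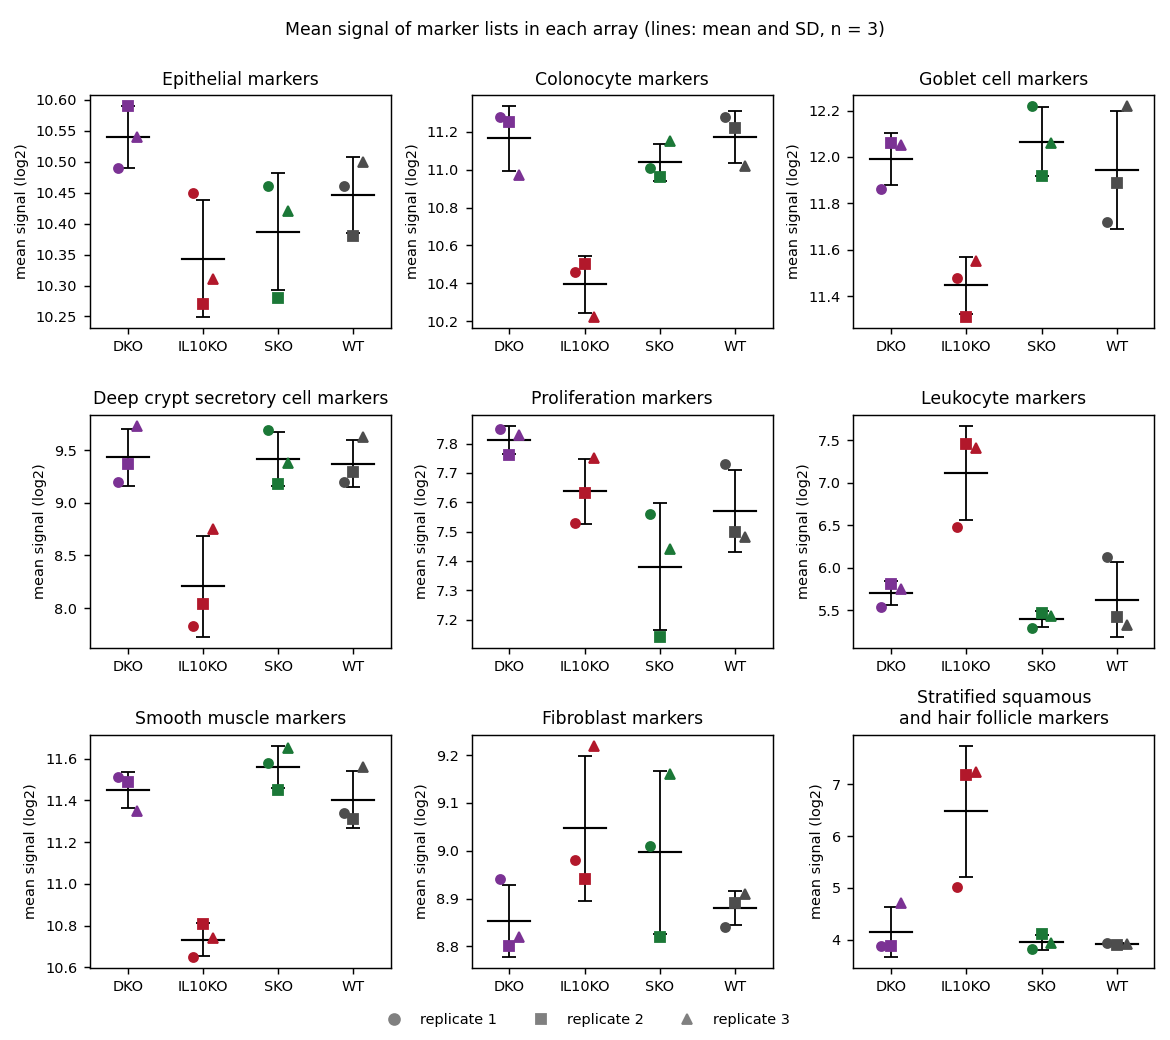
Mean signal of 9 marker lists (log2, vertical axes, each with its own range) in DKO, IL10KO, SKO and WT colons; points are arrays, with symbols for replicates 1 to 3, and lines are the mean and SD (n = 3). IL10KO arrays do not overlap WT for colonocyte, goblet cell, fibroblast, deep crypt secretory, leukocyte, smooth muscle and squamous markers, while the epithelial and proliferation lists overlap between IL10KO and WT.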

How the data were processed

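The deposited table holds log2 signals of 41345 probe sets on 12 arrays, made by the authors. The submitters' processing notes name Affymetrix Expression Console 1.3.1.187. No source used here gives the background correction, the normalization, the array build or the log base. The base was read from the range of values and from the like medians of the arrays. The table has 0 columns from outside the series and no detection calls, so no dim signal is called absent. Precision is limited by the number of arrays.

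Groups follow the labelled genotype, and replicate numbers follow sample order, which pairs nothing. Label dates rise by 1 year from sample to sample and were not used as batches. The annotation gave 1 symbol to 23521 probe sets, several to 1814 and none to 16010, and 23328 of them matched a mouse gene table by Entrez identifier. The brightest probe set stood for a gene, leaving 22180 genes without a filter on dim ones.

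All arrays were fitted together in limma 3.58.1 (R 4.3.3), 1 mean for each genotype, with empirical Bayes moderation, 2-sided and with Benjamini-Hochberg adjustment over all 22180 genes at 0.05. The fit was tested on simulated data. Errors are moderated standard errors. The genes named are the 10 of the set, at most 4 called genes with the largest differences in each list, the 5 nearest to Lgr5 and to each called gene, Sting1 and Il10. Some that were not called (Rspo3, Nkd1, Myc, Clu, Olfm4, Bmi1, Hopx, Msi1, Cd24a, Kcnq1 and Alcam) were named after their values were seen. The genes and all 22 lists were chosen with earlier results of these data known. Promoter windows are RefSeq's on GRCm38.p6.

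Alternatives were quantile normalization, median centring, a filter on dim genes, averaging the probe sets of a gene, testing all probe sets, only the genotypes compared, another variance prior, array weights, each array left out in turn and 2 sets of doubted libraries left out. Centring on epithelial markers was added after seeing the data.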

Additional observations from a re-analysis of the deposited data

Results flagged for a closer look

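Whether the effect of losing IL-10 differed with STING was read from limma's test of (DKO minus SKO) minus (IL10KO minus WT). It called 9 genes of the lists and none of the 9 measured stem cell and Wnt genes of the set. Over all genes it called 143 of 22180, or 0.645%. The lists were chosen with earlier results of these data known, so this count describes them only. Adjusted p-values are over all genes. Without WT replicates 1 and 2, Mmp7 alone of the 9 kept the call, at -3.32 (limma adjusted p = 0.000878), and the other 8 reached limma adjusted p-values of 0.0588 (Clca1) to 0.411 (Bmp2). Groups of 3 arrays are too small for a test of single outlying samples.

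Of the Wnt target genes, Mmp7 differed by -3.34 (limma adjusted p = 6.63e-06), with -0.31 for DKO minus SKO and 3.02 for IL10KO minus WT, and by -1.66 with the mean of its probe sets (limma adjusted p = 0.00164). Of the BMP pathway, Bmp2 differed by 1.0 (limma adjusted p = 0.0393), with 0.25 for DKO minus SKO and -0.75 for IL10KO minus WT. Bmp2 kept this call in 3 of 12 fits that left out 1 array each, those without IL10KO replicate 1, IL10KO replicate 2 or SKO replicate 3 (limma adjusted p up to 0.117), and it was not called with arrays centred on their medians or on their epithelial markers.

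Of the genes listed as secretory cell markers, Ang4 differed by 5.39 (limma adjusted p = 0.0107, with 0.57 for DKO minus SKO and -4.82 for IL10KO minus WT). Lyz1 differed by -2.13 (limma adjusted p = 0.00857, with 0.17 and 2.30 in the same order). Clca1, a goblet cell protein, differed by 1.38 (limma adjusted p = 0.00632, with -0.08 and -1.47). The colonocyte water channel Aqp8 differed by 1.51 (limma adjusted p = 0.0112; 0.26 for DKO minus SKO and -1.26 for IL10KO minus WT). The neutrophil proteins S100a8 and S100a9 differed by -4.15 and -2.94 (limma adjusted p = 0.0103 and 0.0147), and the call of S100a9 ended without DKO replicate 1, DKO replicate 2 or SKO replicate 2 (up to 0.0525). The pancreatic gene Clps differed by 3.51 (limma adjusted p = 0.0335), and its call ended without IL10KO replicate 3, any 1 DKO array, SKO replicate 2 or SKO replicate 3 (up to 0.0992). With all probe sets tested, Bmp2, Aqp8, Ang4, S100a8, S100a9 and Clps were not called, and with the trended and robust prior Ang4 and Clps were not. Clps belongs to the acinar list whose mean was 9.22 and 11.89 in WT replicates 1 and 2. Clps itself read 9.70, 11.94 and 9.77 in WT, 8.31 to 9.59 in SKO, 7.68 to 8.12 in DKO and 5.76 to 6.19 in IL10KO. Its IL10KO minus WT difference of -4.53 (limma adjusted p = 0.00014) was called in 12 of 12 fits that left out 1 array each.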

How the results depend on the processing

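Under 23 alternatives, 12 of which left out 1 array each, no called value changed sign. In IL10KO against WT the count of called genes among the 9 was 1 (Sox9) under 19 of them, and it was 0 with only the genotypes compared in the fit (Sox9 limma adjusted p = 0.0589), 0 without IL10KO replicate 1, SKO replicate 2 and the library labelled WT replicate 3, and 0 without WT replicates 1 and 2. With 1 array left out the count lay between 1 and 2, the 2 being Lgr5 and Sox9 without IL10KO replicate 2. In DKO against IL10KO it was 0, and it was 1 with array weights (Axin2), 1 without the 3 doubted libraries (Axin2), and between 0 and 1 with 1 array left out, the 1 being Sox9 without IL10KO replicate 2. In DKO against SKO it was 0, and 2 with array weights (Sox9 and Rnf43). In DKO against WT, SKO against WT and the test of the difference of effects it was 0 under every alternative that was run. The cause of these changes was not tested, and an omission also leaves fewer arrays.

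Counts over all genes moved more. IL10KO against WT called 1805 genes, 704 with only the genotypes compared, 1013 without the 3 doubted libraries, 232 without WT replicates 1 and 2, and 783 to 3070 with 1 array left out. DKO against IL10KO called 1284, 489 with only the genotypes compared, 828 with all probe sets tested, 846 without WT replicates 1 and 2, 2312 with arrays centred on epithelial markers, and 425 to 2361 with 1 array left out. DKO against SKO called 10, 1940 with array weights, 41 with only the genotypes compared, 21 without the 3 doubted libraries, 32 without WT replicates 1 and 2, and 5 to 20 with 1 array left out. DKO against WT called 10, 33 with array weights, 78 without the 3 doubted libraries and 5 to 69 with 1 array left out. SKO against WT called 0, 50 without the 3 doubted libraries and 0 to 55 with 1 array left out. The test of the difference of effects called 143, 30 with all probe sets tested, 736 with array weights, 245 without the 3 doubted libraries, 16 without WT replicates 1 and 2, 277 with epithelial centring and 50 to 376 with 1 array left out. No paired analysis was possible because the labels give the genotypes no shared replicate numbers. Fzd10 lay below the lower quartile of its array in 12 of 12 arrays, so its differences rest on dim signals. Other genes were not checked in this way, and some were dim too. S100a8 read 2.35 to 2.69 in WT arrays and Olfm4 3.08 to 3.66 over all arrays.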
